A study of Mus musculus with 6 samples.

Results

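The respiratory chain genes described here are the 90 genes on a dual-colour Agilent mouse array whose names begin with Nduf, Uqcr, Atp5 or Cox4 to Cox8, or are Sdha to Sdhd, of 31473 genes in all. They are read by 126 of 39429 probes, and 83 of them encode subunits of the 5 oxidative phosphorylation complexes. The other 7 are Ndufaf1 to Ndufaf4, Atp5s, Atp5sl and Cox4nb, which share the prefix only and are given apart. Of the 90 genes, 88 had a probe above background and were tested among 22097 genes, while Cox7b2 and Cox8c were not well above background in any group. The brightest probe stands for each gene. By complex, 36 subunits of complex I, 4 of complex II, 8 of complex III, 18 of 20 of complex IV and 15 of complex V were tested.

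The cells were M-MDSCs, that is, monocytic suppressor cells of myeloid origin that restrain T cells, and were sorted by flow cytometry from bone marrow or lung of C57BL/6 mice. The treatment combined azacytidine, which blocks DNA methyltransferases, with entinostat, which blocks class I histone deacetylases. Controls, called mock, were given vehicle at an age of 6 to 8 weeks, and the age of the treated mice was not given in the sources used here. Each of the 3 bone marrow and 3 lung arrays set 1 mock RNA from 1 to 2 mice, in Cy3, against 1 treated RNA pooled from 3 to 6 mice, in Cy5. The spread between arrays is therefore a spread between small pools, and whether pools shared animals was not stated. Dyes were never exchanged and each tissue has its own slide, so treatment cannot be told apart from dye, nor tissue from slide.

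Oxidative phosphorylation is carried out by 5 complexes of the inner mitochondrial membrane. Complex I (NADH dehydrogenase) and complex II (succinate dehydrogenase) pass electrons to ubiquinone, complex III to cytochrome c and complex IV (cytochrome c oxidase) to oxygen, and complex V (ATP synthase) uses the resulting proton gradient to make ATP. Complex II is encoded by nuclear genes alone, whereas the other complexes also contain subunits encoded by mitochondrial DNA. Several complex IV subunits exist as a widely expressed form and as a form typical of muscle, lung or testis. Myeloid cells draw on glycolysis and on oxidative phosphorylation to an extent that changes as they differentiate.

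Values are log2 ratios of treated over mock, computed per array after loess normalization, and an error after ± is the SD of the 3 arrays of a tissue. Loess sets the middle of the spots of each brightness to 0 on each array, so a ratio is relative to other spots of that brightness. The headings of the authors' table name mock over treated, but its values correlated positively with Cy5 over Cy3 on every array (r of at least 0.986 over 43173 spots). The dyes in the labels were followed here, so a positive value means higher in treated cells. A gene is said to rise or fall when its adjusted p in limma, taken over all genes tested, was under 0.05. The share of spots well above background ran from 49.9% to 62.8% for mock RNA and from 55.1% to 69.5% for treated RNA, with no saturated spot.

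In lung M-MDSCs more respiratory chain genes fell than rose after loess, whereas with median centring of each array 1 gene passed and the median of the group lay above 0. Of the 88 genes, 38 fell, 9 rose and 41 did not pass, beside 14% lower and 20% higher among all genes tested. Their median log2 ratio was -0.16 and that of all genes 0.01. The sizes were modest, from -0.58 for Ndufa4 to 0.82 for Cox7a1. The median of the members on each array was -0.16, -0.21 and -0.14, so the 3 lung arrays lay close together and below the bone marrow arrays, which gave 0.05, 0.02 and 0.08. All 10 macrophage markers and 7 of 8 lung epithelial markers rose in the same comparison, and their part in these values was not tested. In bulk RNA fewer cells of a type and less RNA per cell cannot be told apart.

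The normalization set the sign of this group value. With each array centred on its median in place of loess, the median over all genes moved to 0.12 in lung and 0.20 in bone marrow, and that of the respiratory chain genes to 0.09 and 0.63. The lung members thus lay below all genes by less than under loess, and the bone marrow members lay above them, and 1 member passed in lung and 0 in bone marrow. Of the 47 members called in lung, 41 kept their sign in every alternative run. The other 6, Cox4i1, Cox7a2, Ndufb7, Ndufb9, Ndufv3 and Uqcrq, were above 0 with median centring.

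**Figure D1:**
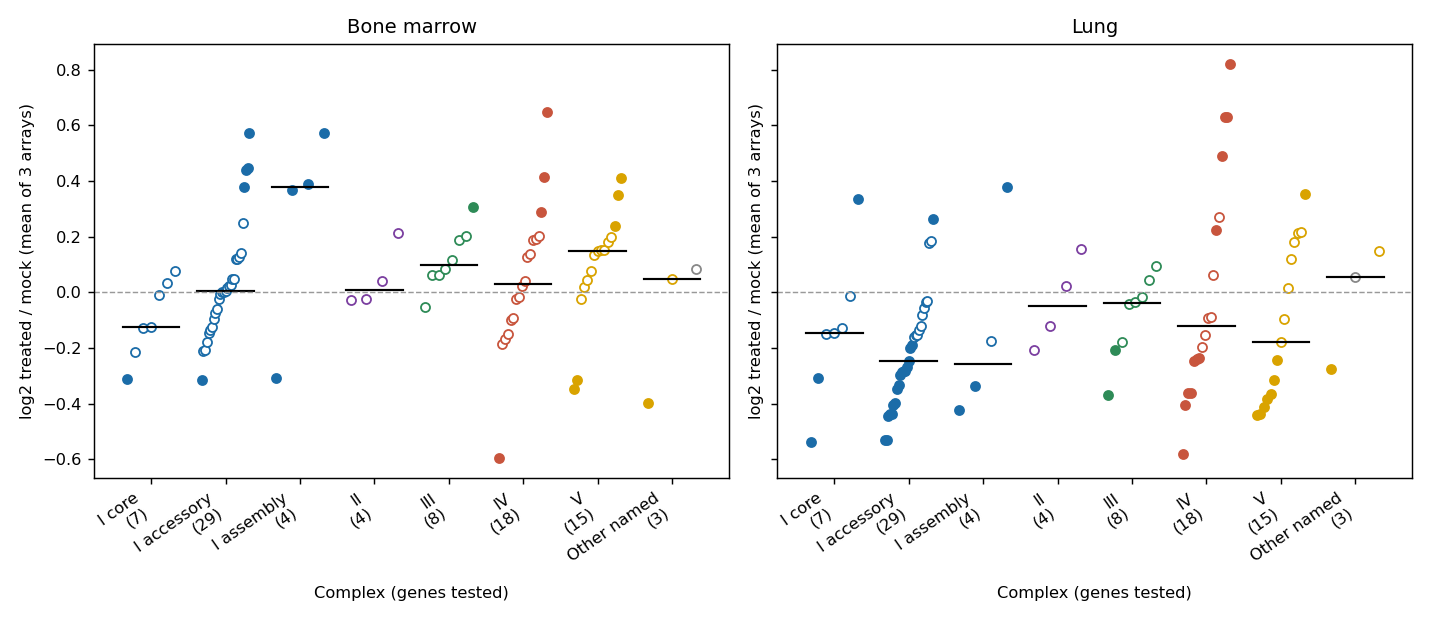
Mean log2 ratio of treated over mock (y axis) for each of the 88 respiratory chain genes tested, grouped by complex (x axis, number of genes in brackets), in bone marrow and lung. Filled points passed at an adjusted p under 0.05 and black lines are group medians; in lung the 29 accessory subunits of complex I have a median of -0.25 and complex II has no filled point. Median centring instead of loess puts the lung medians of complexes I to V above 0.

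In complex I, 19 of 36 subunits (52.8%) fell in lung and 2 (5.56%) rose, beside 14% and 20% among all genes tested. The median of -0.19 turned to 0.06 with median centring, against 0.12 for all genes. The accessory subunits, which surround the catalytic core, accounted for 17 of these 19, out of 29 tested. The nuclear-encoded core subunits, which carry the flavin and the iron-sulphur clusters, held the other 2 that fell.

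Ndufs8, a core subunit with iron-sulphur clusters, read -0.46, -0.59 and -0.57 on the lung arrays, a mean of -0.54 ± 0.07 (n = 3, adjusted p 0.000742). In bone marrow it read -0.28, -0.13 and -0.23 and did not pass (adjusted p 0.0572). All 6 arrays were thus below 0, with the lung values the lower. Ndufs3, another core subunit, fell in lung by 0.31 on the log2 scale. The core subunits Ndufs1, Ndufs7, Ndufv1 and Ndufv2 did not pass in lung, with means between -0.15 and -0.01.

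Ndufb3, an accessory subunit of the membrane arm, read -0.64, -0.48 and -0.48 on the lung arrays (mean -0.53 ± 0.09, adjusted p 0.000957). It read 0.05, 0.09 and 0.21 in bone marrow, so the tissues did not overlap. Ndufa1, a small X-linked accessory subunit, read -0.68, -0.54 and -0.38 in lung (mean -0.53 ± 0.15, adjusted p 0.00249). Ndufa3 and Ndufb5, also accessory, had lung means of -0.44 ± 0.05 and -0.44 ± 0.07, with adjusted p of 0.00117 and 0.00147, though a dimmer Ndufb5 probe gave -0.23. Both chosen probes were below 0 on all 3 lung arrays. Ndufa5, an accessory subunit of the matrix arm, went the other way, at 0.24, 0.20 and 0.34 in lung (mean 0.26 ± 0.07, adjusted p 0.0232).

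None of the 4 complex II genes passed in either tissue. Sdha, the flavoprotein, had a lung mean of 0.15 ± 0.11 and a bone marrow mean of -0.03 ± 0.13. Sdhb, the iron-sulphur subunit, had 0.02 ± 0.10 and -0.03 ± 0.05. The membrane anchor Sdhc had -0.12 ± 0.12 in lung and 0.04 ± 0.13 in bone marrow. The other anchor, Sdhd, had -0.21 ± 0.06 in lung (adjusted p 0.0728) and 0.21 ± 0.17 in bone marrow. The chosen Sdhb probe thus lay within the scatter of its arrays, though the second Sdhb probe gave -0.23 in bone marrow and -0.06 in lung. Sdha read 0.27, 0.06 and 0.14 in lung, above 0 on each array. The mean of Sdhd was on opposite sides of 0 in the 2 tissues.

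In complex III, 2 of 8 subunits (25%) fell in lung and none rose, beside 14% and 20% among all genes tested. The median was -0.04, or 0.21 with median centring. Uqcrfs1, the Rieske iron-sulphur protein, read -0.41, -0.30 and -0.39 in lung (mean -0.37 ± 0.06, adjusted p 0.00284) and 0.05, 0.14 and 0.05 in bone marrow. Uqcrq, a small subunit, had a lung mean of -0.21 ± 0.08 (adjusted p 0.0349), which turned to 0.09 with median centring. The highest lung value was that of the core protein Uqcrc1, 0.09 ± 0.29, whose arrays read 0.42, 0.01 and -0.15 and so had no common sign.

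Complex V had 7 of 15 subunits lower in lung (46.7%) and 1 higher (6.67%), beside 14% and 20% among all genes tested. The median was -0.18, or 0.11 with median centring. Its catalytic F1 head divided. Atp5b, the catalytic beta subunit, rose in lung, at 0.49, 0.19 and 0.38 (mean 0.35 ± 0.15, adjusted p 0.00982). The central stalk subunits Atp5c1 (gamma) and Atp5e (epsilon) fell, with lung means of -0.44 ± 0.05 and -0.32 ± 0.10. Atp5a1 (alpha) and Atp5d (delta) did not pass, with means of 0.22 ± 0.14 and 0.18 ± 0.11. Of the 10 other subunits, which form the membrane part and the peripheral stalk, 5 fell and none rose.

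Atp5l, subunit g of the membrane part, is read by 6 probes, and their lung means ran from -0.51 to -0.42. Its chosen probe read -0.52, -0.45 and -0.34 in lung (adjusted p 0.00159) and 0.01, -0.02 and -0.06 in bone marrow. The 6 probes thus gave 1 picture, below 0 in lung and close to 0 in bone marrow. Atp5k, subunit e, had a lung mean of -0.41 ± 0.16 (adjusted p 0.00537), and its other 2 probes gave -0.36 and -0.42. Its chosen probe is placed on chromosome Y by the scanner file, and whether a related copy shares its signal was not tested. Many subunit genes have processed copies in the genome.

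Complex IV had 7 of 18 subunits lower (38.9%) and 5 higher (27.8%) in lung, beside 14% and 20% among all genes tested. The median was -0.12, or 0.19 with median centring. One of the 5 higher, Cox8b, was well above background in treated lung alone. The lowest was Ndufa4, named for complex I but a subunit of complex IV, read by a probe at chr6:11850423-11850482 in the mm9 build. Ndufa4 read -0.73, -0.56 and -0.45 in lung (mean -0.58 ± 0.14, adjusted p 0.00298) and -0.01, 0.19 and 0.43 in bone marrow. Every lung array was below every bone marrow array. Cox5b, Cox6c and Cox7c, all widely expressed subunits, had lung means of -0.36 ± 0.06, -0.40 ± 0.11 and -0.36 ± 0.15. A further Cox5b probe gave -0.42 in lung, but the 2 further Cox7c probes gave -0.06 and -0.28, so the Cox7c probes disagreed in size. Cox5a, the partner of Cox5b in the assembled enzyme, did not pass in either tissue, at -0.09 ± 0.08 in lung and 0.04 ± 0.14 in bone marrow.

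Of the 5 complex IV genes that passed upward in lung, Cox7a1, Cox6b2, Cox6a2 and Cox4i2 were measured in both lung channels, and each is a tissue-restricted form of a subunit. The fifth, the restricted form Cox8b, was well above background in treated lung alone. It entered the fit only through the group where it is high, so its call had to point this way and is no support for the others. Cox7a1, Cox6a2 and Cox8b are the forms of heart and skeletal muscle, Cox6b2 that of testis, and Cox4i2 is known from lung and responds to oxygen. Their widely expressed counterparts Cox7a2, Cox6b1 and Cox4i1 fell in lung, while Cox6a1 and Cox8a did not pass. The second Cox8a probe read -0.27, -0.27 and -0.23 in lung, a mean of -0.25 against -0.09 for the brighter probe used. Cox7a1, Cox6b2, Cox6a2 and Cox4i2 were above 0 in lung under every alternative run, whereas the lung means of Cox7a2 and Cox4i1 turned to 0.01 and 0.08 with median centring. Only Cox7a1 passed in lung under all 17 alternatives, with adjusted p of at most 0.0224.

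Cox7a1 read 0.99, 0.69 and 0.78 in lung (mean 0.82 ± 0.15, adjusted p 0.000812) and 0.32, 0.19 and -0.10 in bone marrow. All lung arrays lay above all bone marrow arrays. Cox7a2 read -0.29, -0.24 and -0.17 in lung (mean -0.23 ± 0.06, adjusted p 0.0227). Cox7a2l, a homologue of Cox7a2, did not pass in lung at -0.15 ± 0.14 but fell in bone marrow. Within this family the lung arrays therefore separated Cox7a1 from both relatives.

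Cox6b2 read 0.95, 0.55 and 0.39 in lung (mean 0.63 ± 0.29, adjusted p 0.00331), with all arrays above 0 and array 1 the highest, and Cox6b1 read -0.32, -0.21 and -0.22 (mean -0.25 ± 0.06, adjusted p 0.014). Cox4i2 was close in both tissues, at 0.23 ± 0.07 in lung and 0.29 ± 0.12 in bone marrow (adjusted p 0.0349 and 0.0303). Cox4i1 had a lung mean of -0.24 ± 0.08 (adjusted p 0.0221) and a bone marrow mean of -0.17 ± 0.08 that did not pass, and the tissue difference of -0.07 did not pass.

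Cox6a2 and Cox8b were dim. Cox6a2 was not well above background in mock bone marrow and was above it in the other 3 groups. It read 0.41, 0.78 and 0.76 in bone marrow, where treated cells were 1.57-fold higher on the mean of the arrays (adjusted p 0.0167). In lung Cox6a2 read 0.20, 0.45 and 0.81 (mean 0.49 ± 0.31, adjusted p 0.0188), while Cox6a1 had a lung mean of 0.06 ± 0.14. Cox8b was well above background in treated lung alone, where it was on the mean 1.55-fold higher than in mock lung (adjusted p 0.00565). Its lung arrays read 0.76, 0.90 and 0.23, so array 3 was far below the others, and Cox8a had a lung mean of -0.09 ± 0.04. These fold values set the normalized level of the brighter group against the measured level of the dimmer one, which was not well above background. They are means and not lower bounds, since single arrays lay below them, and they are open to dye bias. The sizes for these dim genes moved with the signal used. With the scanner's processed signals the log2 mean of Cox6a2 in bone marrow was 3.22 and that of Cox8b in lung 2.18, against 0.65 and 0.63 here, and with background from negative control spots they were 0.91 and 0.80. Ndufa4l2, a relative of Ndufa4 induced in hypoxia, was not well above background in bone marrow and did not pass in lung, at 0.02, 0.19 and 0.60.

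**Figure D2:**
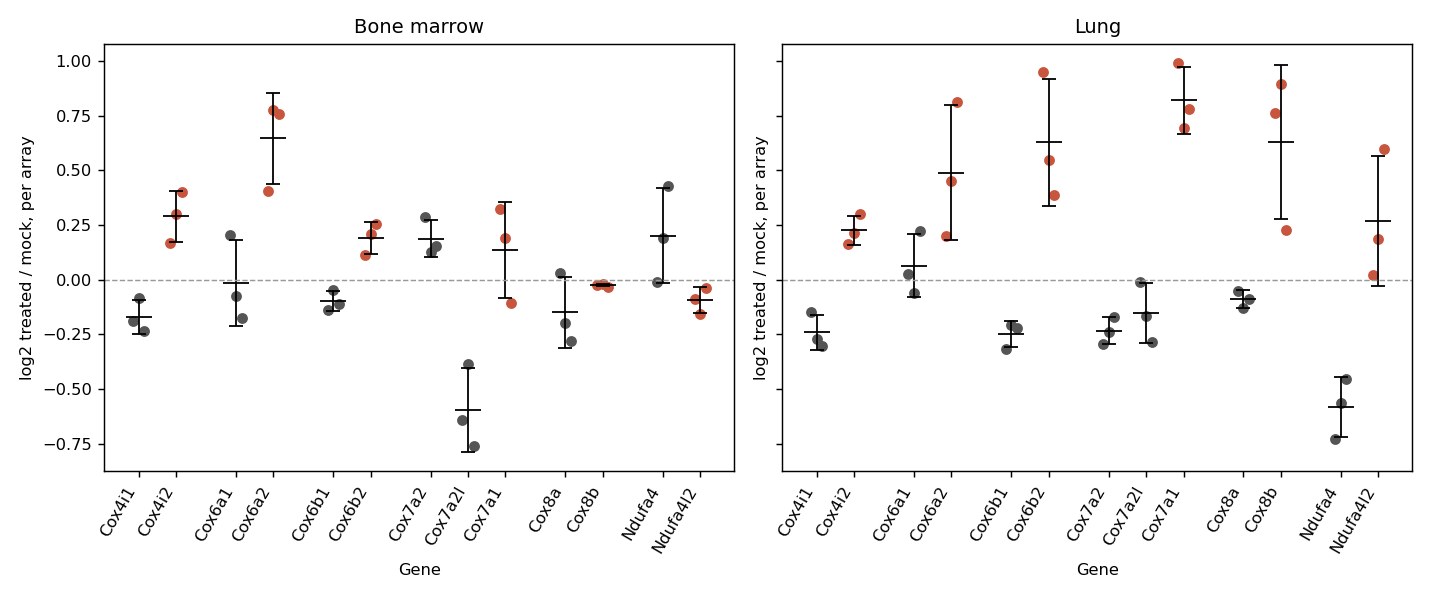
Log2 ratio of treated over mock on each array (points, y axis) with mean and SD of 3 arrays (black), for complex IV subunits (x axis) with a widely expressed form (grey; Cox7a2l is also grey) and a tissue-restricted form (red). In lung all red points lie above 0 and Cox7a1 has a mean of 0.82; Cox8b is above background in treated lung alone, and the lung means of Cox7a2 and Cox4i1 turn above 0 with median centring.

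The promoters of 2 such pairs are printed to show how many CpG dinucleotides, the sites that DNA methyltransferases modify, lie before the start of each gene. Methylation itself was not measured. The RefSeq promoter table (GRCm38.p6) held 74 of the 90 genes, not Cox6a2, Cox4i1 or Cox4i2. Each stretch is the 150 bases before the most upstream start of the gene, 5′ to 3′ on the gene's strand, with CpG in capitals. They lie at chr7:30184021-30184170 (Cox7a1, plus strand), chr9:79759854-79760003 (Cox7a2, minus), chr7:4753095-4753244 (Cox6b2, minus) and chr7:30626115-30626264 (Cox6b1, minus).
Cox7a1: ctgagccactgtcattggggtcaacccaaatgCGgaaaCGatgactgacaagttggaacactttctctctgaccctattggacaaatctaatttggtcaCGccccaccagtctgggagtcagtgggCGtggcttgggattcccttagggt
Cox7a2: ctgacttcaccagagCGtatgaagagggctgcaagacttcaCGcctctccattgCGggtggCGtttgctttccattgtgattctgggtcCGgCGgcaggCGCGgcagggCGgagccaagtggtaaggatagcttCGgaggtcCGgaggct
Cox6b2: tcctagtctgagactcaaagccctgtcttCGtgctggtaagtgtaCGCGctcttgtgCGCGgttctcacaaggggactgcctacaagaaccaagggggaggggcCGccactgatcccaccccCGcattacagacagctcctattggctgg
Cox6b1: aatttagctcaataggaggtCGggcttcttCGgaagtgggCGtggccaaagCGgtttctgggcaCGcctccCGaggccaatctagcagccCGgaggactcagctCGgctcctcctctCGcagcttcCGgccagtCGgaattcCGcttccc

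Over the window from 250 bases before to 50 bases after the start, Cox7a1 held 7 CpG and Cox7a2 20. Cox6b2 held 10 and Cox6b1 17. The median was 19 over the 74 respiratory chain promoters and 7 over the promoters of all 27025 genes in the table. In both pairs the form that rose in lung had the fewer CpG. Other members went otherwise: Ndufaf2 rose in lung with 25 CpG and Ndufc2 fell with 8. Whether CpG number goes with the response was not tested. Among the matched members that fell in lung the median was 20 over 34 promoters, and among those that rose it was 15 over 5 without Cox8b and 12.5 over 6 with it.

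In bone marrow M-MDSCs 14 of the 88 genes rose, 7 fell and 67 did not pass, beside 7.25% higher and 7.14% lower among all genes tested. The median was 0.04 and that of all genes 0.02. Complex I had 4 higher and 2 lower of 36 subunits, complex III 1 higher of 8, complex IV 3 higher and 1 lower of 18, and complex V 3 higher and 2 lower of 15. With median centring all the complex medians stood between 0.57 and 0.80, the 7 genes that fell were above 0, and no member passed. The 14 that rose were above 0 in every alternative run. Leaving out bone marrow array 1, 2 or 3 left 8, 6 or 5 members called there. In lung, leaving out array 2 or 3 left 28 or 31.

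Ndufa12, an accessory subunit of complex I, read 0.58, 0.49 and 0.65 in bone marrow (mean 0.57 ± 0.08, adjusted p 0.00284) and 0.17, 0.12 and 0.24 in lung (adjusted p 0.0575). It was above 0 on all 6 arrays and higher in bone marrow. Ndufc1, also accessory, read 0.60, 0.37 and 0.37 (mean 0.45 ± 0.14, adjusted p 0.018). Ndufa5 read 0.45, 0.30 and 0.57 (mean 0.44 ± 0.13, adjusted p 0.00951), so it rose in both tissues, and its second probe gave 0.24 in bone marrow and 0.15 in lung. Cox7b, a small complex IV subunit, read 0.50, 0.36 and 0.38 (mean 0.42 ± 0.07, adjusted p 0.0102). Atp5g3, which encodes the proton-carrying c subunit of ATP synthase, read 0.56, 0.22 and 0.46 (mean 0.41 ± 0.17, adjusted p 0.022). Uqcr10, a small subunit of complex III, had a mean of 0.31 ± 0.11 (adjusted p 0.0364).

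Cox7a2l was the lowest member in bone marrow, at -0.64, -0.39 and -0.76 (mean -0.60 ± 0.19, adjusted p 0.00732), a value that became 0.12 with median centring. Its 2 other probes gave -0.60 and -0.28 there. Atp5h, subunit d of the peripheral stalk, had a mean of -0.35 ± 0.12 (adjusted p 0.0158), but its second probe gave -0.05. The central stalk subunit Atp5c1 fell in both tissues, at -0.31 ± 0.06 in bone marrow (adjusted p 0.0155), and its second probe gave -0.25 there and -0.45 in lung. Ndufa13, an accessory subunit also known as GRIM-19, had -0.31 ± 0.12 in bone marrow (adjusted p 0.0246) and -0.35 ± 0.08 in lung. Ndufs7, a core subunit with an iron-sulphur cluster, had -0.31 ± 0.06 in bone marrow (adjusted p 0.0291). For Atp5h, Atp5c1, Ndufa13 and Ndufs7 median centring turned the bone marrow means above 0, where they were 0.37, 0.39, 0.44 and 0.23.

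The response differed between the tissues for 27 of the 88 genes. It was lower in lung than in bone marrow for 25 and higher for 2, beside 5.46% lower and 9.78% higher among all genes tested. The median difference, lung minus bone marrow, was -0.17, and 0.00 for all genes. Complex I had 9 lower of 36 subunits, complex II 1 of 4, complex III 3 of 8, complex IV 5 lower and 2 higher of 18, and complex V 5 of 15. All 27 differences kept their sign in every alternative run, median centring included, where none passed. Leaving out bone marrow array 1, 2 or 3 left 13, 9 or 15 called, and leaving out lung array 2 left 12.

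The largest differences toward lower values in lung among subunits were those of Ndufa4 (-0.78, adjusted p 0.00975), Ndufb3 (-0.65, adjusted p 0.00527) and Cox7b (-0.61, adjusted p 0.00724). Cox7b rose in bone marrow and read -0.29, -0.24 and -0.07 in lung, where it did not pass. Atp5k differed by -0.57, Ndufc1 by -0.53 and Atp5o, the peripheral stalk protein OSCP, by -0.52. Atp5o read -0.32, -0.40 and -0.38 in lung and 0.20, 0.13 and 0.12 in bone marrow, with a gap between tissues far wider than its scatter. The other direction was taken by Cox7a1 (0.68, adjusted p 0.0166). Cox8b passed that way too, but it was not well above background in either bone marrow channel or in mock lung. It entered the fit only through treated lung, so its call is no support for that of Cox7a1. Atp5f1, subunit b of the peripheral stalk, rose in bone marrow (0.26, 0.28 and 0.18) and fell in lung (-0.29, -0.23 and -0.21), a difference of -0.48 (adjusted p 0.00946).

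**Figure D3:**
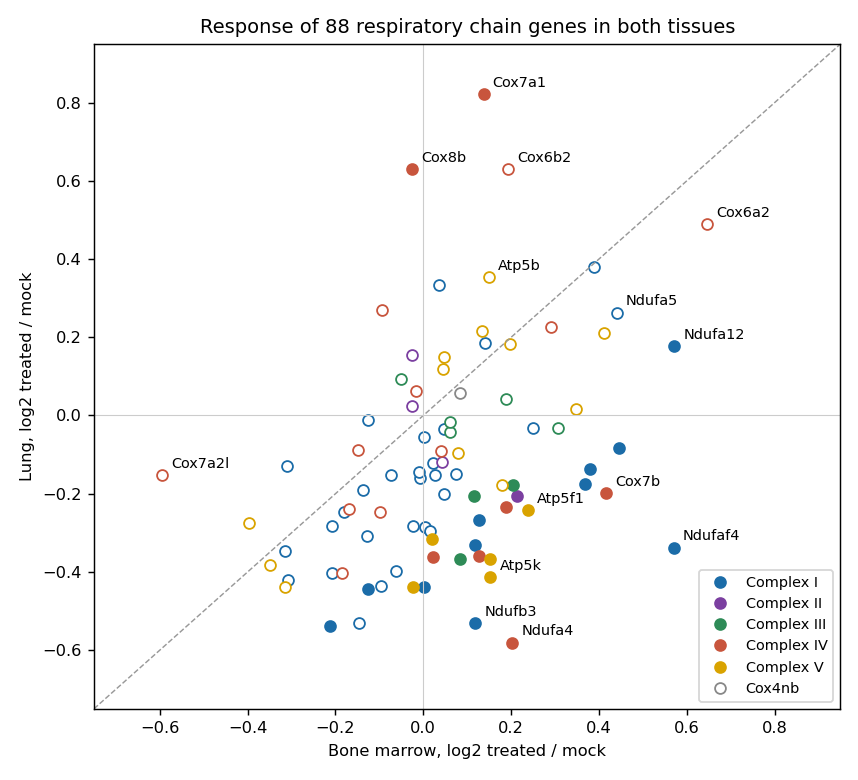
Mean log2 ratio of treated over mock in lung (y axis) against bone marrow (x axis) for the 88 genes, coloured by complex; the dashed line marks equal response. Filled points differ between tissues at an adjusted p under 0.05: 25 lie below the line and Cox7a1 and Cox8b above it, the latter above background in treated lung alone.

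All 4 complex I assembly factors among these genes, proteins that build the complex without staying in it, passed in bone marrow. Ndufaf1, Ndufaf2 and Ndufaf4 rose there and Ndufaf3 fell, beside 7.25% higher and 7.14% lower among all genes tested. Ndufaf4 read 0.39, 0.54 and 0.78 in bone marrow (mean 0.57 ± 0.20, adjusted p 0.00958) and -0.43, -0.42 and -0.17 in lung (mean -0.34 ± 0.15, adjusted p 0.0244). Its difference between tissues, -0.91, was the largest of all members (adjusted p 0.00536), and its second probe gave 0.17 and -0.14. Ndufaf1 read 0.32, 0.37 and 0.41 in bone marrow and 0.01, -0.29 and -0.25 in lung, a difference of -0.54 (adjusted p 0.0145). Ndufaf2 rose alike in both, at 0.39 ± 0.25 and 0.38 ± 0.11 (adjusted p 0.0379 in bone marrow and 0.0195 in lung). Ndufaf3 fell in both, at -0.31 ± 0.03 and -0.42 ± 0.18, though its bone marrow mean was 0.089 with median centring. Atp5sl, an assembly factor of complex I despite its name, fell to -0.40 ± 0.08 in bone marrow (0.093 with median centring) and to -0.28 ± 0.09 in lung. Atp5s and Cox4nb, now called Emc8 and part of a complex of the endoplasmic reticulum, did not pass in either tissue. Of 29 assembly factors with other names, 3 rose (10.3%) and 1 fell (3.45%) in bone marrow, near the shares of all genes tested. In lung 3 rose (10.3%) and 9 fell (31%), beside 20% and 14% of all genes.

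Respiratory chain promoters are known to carry sites for NRF1, for ETS-family factors such as GABP (NRF-2) and for YY1. An NRF1-like core, GCGCATGCG, was found on either strand in 9 of the 74 matched genes (12.2%), against 1.95% of the 27025 genes in the table. An ETS-like core, CCGGAAGT, was found in 5 (6.76% against 4.31%) and a YY1-like core, AAGATGGCG, in 8 (10.8% against 1.64%). No core contains another, but each holds CpG. The matched promoters had a median of 19 CpG against 7 over all genes in the table, and the shares were not matched for this. Among mitochondrial ribosomal protein genes the shares were 10.3%, 17.6% and 11.8%. The NRF1-like core was held by 4 of 34 members that fell in lung and 5 of 33 that did not pass. It was held by 0 of 6 that rose, or 0 of 5 without Cox8b. These are matches of letters, not bound sites. Stretches around it (in capitals) from 3 members that fell in lung show its place before the start, at chr9:44920950-44920992 (Atp5l, minus strand), chr5:108434416-108434474 (Atp5k, minus) and chr4:24897945-24898003 (Ndufaf4, plus) in GRCm38.p6. The Atp5l window holds the reverse complement.
Atp5l: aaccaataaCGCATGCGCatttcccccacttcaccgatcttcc
Atp5k: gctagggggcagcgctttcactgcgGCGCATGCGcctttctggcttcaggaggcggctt
Ndufaf4: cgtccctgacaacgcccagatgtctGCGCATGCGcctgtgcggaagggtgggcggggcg

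Among other mitochondrial genes, the protein genes of the mitochondrial ribosome, which translates the subunits encoded by mitochondrial DNA, had values near those of the respiratory chain. In lung 32 of 77 fell (41.6%) and 3 rose (3.9%), with a median of -0.17, beside 14% lower and 20% higher among all genes tested. In bone marrow 9 rose (11.7%) and 3 fell (3.9%), with a median of 0.09, beside 7.25% and 7.14% of all genes. The tricarboxylic acid cycle enzymes, which supply NADH, had 1 higher and 1 lower of 13 in lung (7.69% each), with a median of -0.01. Proteins of the cytosolic ribosome, also highly expressed, had 23 higher (28.7%) and 9 lower (11.2%) of 80 in lung, with a median of 0.08. With median centring the lung medians were 0.06 for the mitochondrial ribosome, 0.23 for the cycle and 0.40 for the cytosolic ribosome, beside 0.09 for the respiratory chain.

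Of 12 respiratory chain subunits encoded by mitochondrial DNA, 3 (25%) rose in lung and none fell, beside 20% higher and 14% lower among all genes tested. COX1, the catalytic subunit of complex IV, had a lung mean of 0.60 ± 0.15 (adjusted p 0.00103), CYTB of complex III 0.38 ± 0.08 and ND4 of complex I 0.29 ± 0.14. The median of the 12 on the lung arrays was -0.05, 0.23 and 0.26, so array 1 stood below the others. After loess the median of the nuclear-encoded members was below 0 on all 3, but over the 3 arrays it was 0.09 with median centring. In bone marrow ND1 rose and COX2 fell (8.33% each), beside 7.25% higher and 7.14% lower among all genes tested. Of 11 regulators of mitochondrial biogenesis, Tfam, the main mitochondrial DNA packaging factor, fell in lung (-0.42 ± 0.09) and Pprc1 fell too. Tfb1m rose in both tissues. In lung this made 18.2% lower and 9.09% higher, beside 14% and 20% of all genes.

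Electron carriers and subunits that carry other names were mostly above 0 in both tissues. Of 7 such genes 2 rose (28.6%) and 1 fell (14.3%) in lung, beside 20% and 14% among all genes tested. There 5 were above 0 and the median was 0.18, or 0.39 with median centring. In bone marrow 4 of the 7 rose (57.1%, beside 7.25% of all genes), all were above 0 and the median was 0.36, or 0.95 with median centring. Etfdh, which passes electrons from fatty acid oxidation to quinone, rose in both tissues, by 0.46 ± 0.02 in bone marrow and 0.29 ± 0.09 in lung (adjusted p 0.00507 and 0.00865). Atpif1, the inhibitor of ATP synthase, rose in both as well, by 0.56 ± 0.23 and 0.50 ± 0.12 (adjusted p 0.0108 and 0.00558). Cyc1, the cytochrome c1 subunit of complex III, rose in bone marrow (0.36 ± 0.08) and did not pass in lung (0.18 ± 0.16). Cycs, which encodes the cytochrome c that joins complex III to complex IV, rose in bone marrow by 0.86 ± 0.16 and did not pass in lung (-0.15 ± 0.35), and the tissues differed (adjusted p 0.012). The gene that fell in lung was Atp5md (Usmg5), a small subunit of complex V, at -0.38 ± 0.23 (adjusted p 0.0186). Of 8 genes for uncoupling and for exchange across the mitochondrial membranes, Slc25a5 and Vdac3 fell in lung (25%) and none rose, with a median of 0.14. In bone marrow Slc25a20 and Slc25a4 rose (25%) and Ucp2 fell (12.5%), beside 7.25% and 7.14% of all genes.

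**Figure D4:**
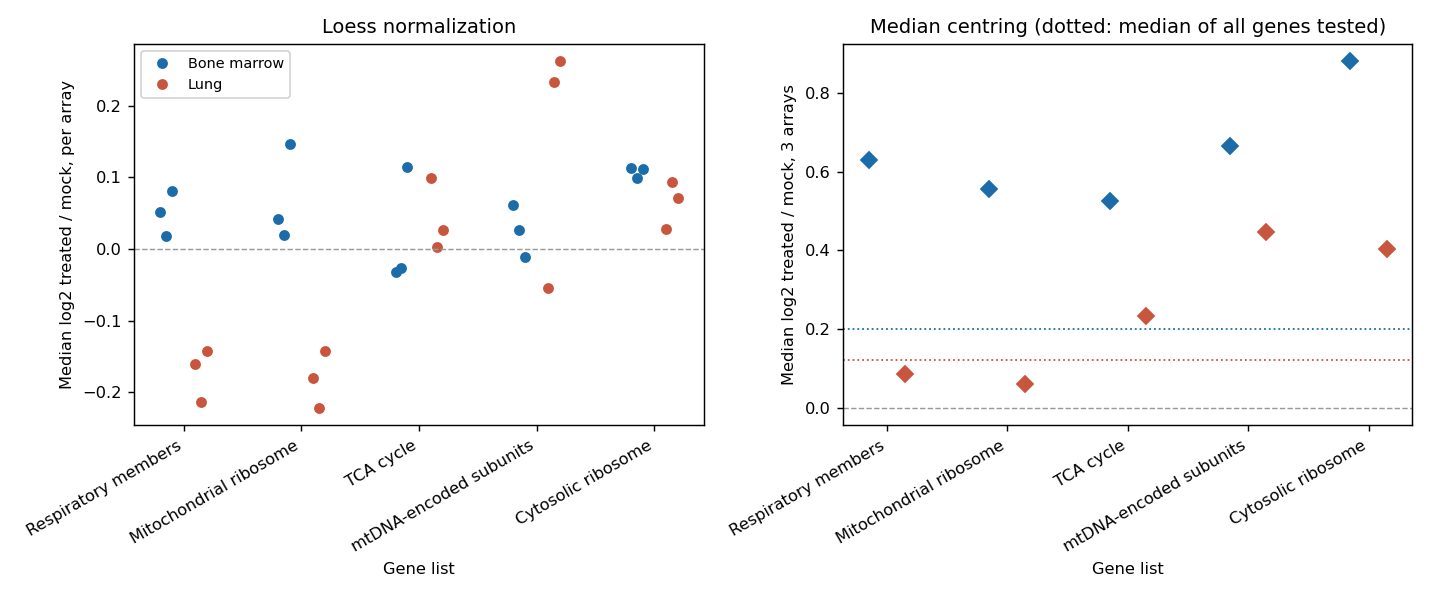
Left, median log2 ratio of treated over mock (y axis) of each gene list (x axis) on each of 3 bone marrow (blue) and 3 lung (red) arrays after loess. Right, the same medians over 3 arrays with median centring, where dotted lines show the median of all genes tested (0.20 in bone marrow, 0.12 in lung); the respiratory chain and the mitochondrial ribosome are the lists below the lung line, and their lung medians turn from below to above 0.

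Markers of other cells moved with the lung comparison. All 10 macrophage markers rose in treated lung (median 2.18), and their summed level went from 33100 to 39800 intensity units in the mock arrays to 99600 to 149000 in the treated ones. Of lung epithelial markers 7 of 8 rose (15300 to 28400 mock, 58800 to 90100 treated), with Epcam not above background in mock lung. Endothelial markers rose for 7 of 8 (6570 to 8660 mock, 13900 to 17600 treated) and neutrophil markers for 5 of 9 (13600 to 26200 mock, 27500 to 67800 treated). B cell markers fell for 5 of 7 and rose for 1 (3950 to 6050 mock, 2240 to 2510 treated). Erythroid markers rose for 2 and fell for 2 of 7 (2430 to 5500 mock, 2150 to 2910 treated). Markers of M-MDSCs rose for 3 and fell for 3 of 9 (204000 to 228000 mock, 212000 to 244000 treated). In bone marrow 1 of 8 epithelial markers rose, 1 macrophage and 1 erythroid marker fell, and 1 rose and 3 fell of the 9 M-MDSC markers, while no neutrophil, endothelial or B cell marker passed. Whether these cells contribute to the respiratory chain values was not tested.

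Mock lung cells were compared with mock bone marrow cells on the Cy3 channel, which shows the level without treatment, though here tissue and slide cannot be told apart. Lung was lower for 43 of the 88 genes and higher for 16, beside 36.3% lower and 29.6% higher among all genes tested. The median difference was -0.18, and -0.04 for all genes. This split depends on the scaling. With the scanner's processed Cy3 signal scaled to its upper quartile, 32 members were higher and 24 lower, and with quantile normalization of Cy3 alone 20 were higher and 40 lower. Marker lists also differed between the mock tissues. All 10 macrophage, 7 of 8 epithelial, 7 of 8 endothelial and all 7 B cell markers were higher in lung and 7 of 9 neutrophil markers lower, and their part was not tested.

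By complex, lung was lower for 17 and higher for 7 of 36 complex I subunits, and lower for 2 and higher for 1 of the 4 complex II genes. In complex III 2 were lower and 2 higher of 8, and in complex IV 9 lower and 6 higher of 18. Complex V had 12 of 15 lower and none higher, with all 5 F1 subunits among them, from -0.88 for Atp5e to -0.66 for Atp5a1. The lowest complex V genes were Atp5g3 (-1.15, adjusted p 1.25e-05) and Atp5k (-1.06, adjusted p 3.07e-05), while Atp5f1 and Atp5o, both of the peripheral stalk, differed by 0.01 each. The counts by complex also moved with the scaling. With the scanner's processed Cy3 signal scaled to its upper quartile, 4 of the 15 complex V subunits were lower and 4 higher in lung (median -0.11, against -0.66 above), and with quantile normalization of Cy3 alone 10 were lower and none higher. With the processed signal the medians of complexes I, III and IV turned above 0, to 0.05, 0.40 and 0.19, while complex II stayed below 0 at -0.28.

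The lowest member was Ndufb10, an accessory subunit of complex I, whose mock log2 level was 14.56 ± 0.04 in bone marrow and 12.91 ± 0.03 in lung (difference -1.65, adjusted p 5.83e-07). Ndufb9, Ndufv3 and Ndufs6 differed by -1.18, -1.17 and -1.11, and Sdhb by -1.07. These complex I and complex II genes had lung levels below every bone marrow level. In the other direction Cox6b1 had a mock log2 level of 9.72 ± 0.01 in bone marrow and 11.01 ± 0.05 in lung (difference 1.29, adjusted p 2.01e-06). Ndufa11 differed by 0.92, Ndufa6 by 0.75, Ndufa2 by 0.61, Cox7b by 0.56, Sdhd by 0.45 and Ndufs8 by 0.43. Cox6a2, not above background in mock bone marrow, was 2.10-fold higher in mock lung on the mean of the arrays (adjusted p 9.76e-05). Ndufa4l2 was 1.29-fold higher (adjusted p 0.0143), but it was not well above background in either bone marrow channel. It entered the fit only through lung, so its call had to point this way. Ndufa4l2 is counted among the 16 members higher in mock lung but is no support for the others. Cox7a1 differed by 0.03 and did not pass, so its mock levels were close in the 2 tissues while its response was not.

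**Figure D5:**
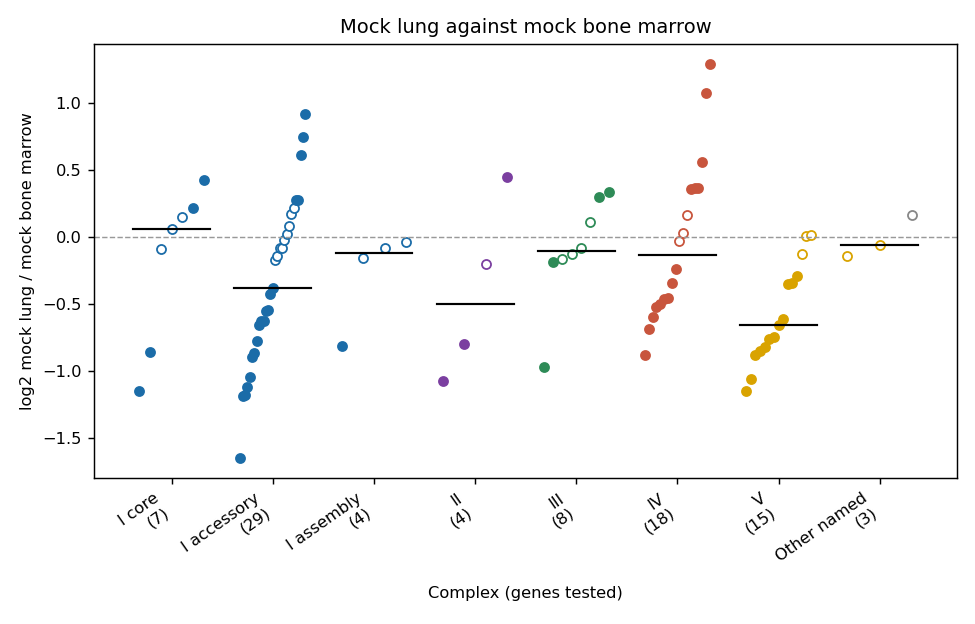
Log2 level in mock lung over mock bone marrow (y axis) for the 88 genes grouped by complex (x axis, number of genes in brackets), from 3 Cy3 channels per tissue. Filled points passed at an adjusted p under 0.05 and black lines are medians; 12 of 15 complex V subunits are filled below 0 and none above (4 and 4 with the processed Cy3 signal scaled to its upper quartile), while over all members 43 are lower and 16 higher, or 24 and 32 with the processed Cy3 signal scaled to its upper quartile.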

How the data were processed

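The deposited scanner files were written by Agilent Feature Extraction 10.7.3.1 (probe positions in mm9) and hold raw intensity values of spots and their surroundings, per the file headers, beside processed intensity values and the log10 ratio of the scanner software. The deposited matrices hold log2 ratios made by the authors with limma, per the submitters' processing notes, with settings not given in the sources used here. They served only to check the direction.

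Mean signals were corrected with normexp (offset 50) on the median local background and then normalized with loess array by array (control spots weighted 0) in limma 3.58.1 and R 4.3.3. Negative control spots kept a Cy5 signal of 290.3 on bone marrow array 1 and 137.0 on lung array 2 after this step and 63.3 to 66.0 on the others. A probe entered when 2 or more arrays of some tissue and channel marked it well above background (27695 of 39429). Gene names came from RefSeq identifiers for 26581 probes. Each gene was read by its brightest kept probe. The exons behind a probe were not analysed here.

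Log2 ratios of 6 arrays were fitted with a mean for each tissue, and variances were moderated (4 residual degrees of freedom, 3.52 from the prior), and mock levels on Cy3 after Aquantile. limma's two-sided p was adjusted by Benjamini-Hochberg over 22097 genes and called under 0.05. The fit code was run on simulated independent normal values with added changes. These held no dye or loess effects, so this run does not bear on single calls here. The number of arrays limits the precision.

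The members, lists and naming rule were chosen with earlier results of these data known. The text names up to 8 members called in each direction of each comparison, the highest and lowest of each complex, all Sdh genes, complex IV forms and genes that share the prefix only. A result that this rule would name is not reported here. Alternatives changed the signal, background, normalization, filter, probe choice, fit and arrays. Promoters came from the RefSeq table of GRCm38.p6, with 1 window per gene for CpG and all windows for motifs.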

Additional observations from a re-analysis of the deposited data

Results flagged for a closer look

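The response to treatment differed between lung and bone marrow, by limma's test of the difference itself, for 27 respiratory chain genes. Given as lung minus bone marrow on the log2 scale, the difference in complex I subunits was Ndufb3 -0.65, Ndufc1 -0.53, Ndufb6 -0.52, Ndufs4 -0.45, Ndufb5 -0.44, Ndufc2 -0.40, Ndufa12 -0.39, Ndufs8 -0.33 and Ndufa3 -0.32. Among complex I assembly factors it was Ndufaf4 -0.91 and Ndufaf1 -0.54. In complex II it was Sdhd -0.42, and in complex III Uqcrfs1 -0.45, Uqcr11 -0.38 and Uqcrq -0.32. In complex IV it was Ndufa4 -0.78, Cox7b -0.61, Cox7c -0.49, Cox7a2 -0.42 and Cox5b -0.38 on the lower side and Cox8b 0.65 and Cox7a1 0.68 on the higher. In complex V it was Atp5k -0.57, Atp5o -0.52, Atp5f1 -0.48, Atp5l -0.41 and Atp5e -0.34. Cox8b was well above background in treated lung alone, so its value is a description of a gene at background elsewhere. The second Cox7c probe of like brightness gave -0.06 in lung against -0.36, and Cox7c did not pass with the mean of its probes. The adjusted p ran from 0.00527 to 0.0498. Tissue and slide cannot be told apart, and none of these differences passed with median centring.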

How the results depend on the processing

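The counts of members called were 21 in bone marrow, 47 in lung, 27 for the tissue difference and 59 between the mock tissues. With median centring in place of loess they were 0, 1 and 0, with 0 of all genes passing in bone marrow and 964 in lung. The bone marrow means of 7 named genes then turned to 0.12 for Cox7a2l, 0.093 for Atp5sl, 0.37 for Atp5h, 0.39 for Atp5c1, 0.44 for Ndufa13, 0.23 for Ndufs7 and 0.089 for Ndufaf3. The tissue difference gave 17 members with processed signals and 16 with scaling between arrays. Leaving out 1 array gave 5 to 22 in bone marrow, 28 to 47 in lung, 9 to 20 for the difference and 53 to 61 between mock tissues. Without bone marrow array 1 and lung array 2 together, a choice made after seeing the data because negative controls were bright there, 0, 18 and 0 passed, and 25 and 26 had an unadjusted p under 0.05 in bone marrow and for the difference. The cause of these changes was not tested, except that fewer arrays carry less information.

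Whether array numbers pair the samples is not known. The deviations of same-numbered arrays of the 2 tissues correlated at 0.00, 0.12 and 0.05, and those of unlike number at -0.12 to 0.04. Such low correlations cannot decide it. With the number as a replicate block 19, 43, 20 and 55 members were called. Of the calls, 0 of 21 in bone marrow, 1 of 47 in lung, 0 of 27 for the difference and 32 of 59 between mock tissues held in every alternative, while 14, 41, 27 and 53 kept their sign. Cox6a2 in mock bone marrow, Ndufa4l2 in bone marrow and Cox8b outside treated lung are limited by signal near background.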
